A study of Homo sapiens and Mus musculus with 22 samples.

Results

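The genes described here are the numbered LINC genes, loci named only as long intergenic non-protein-coding RNAs with a number, that were expressed in U2OS, a human osteosarcoma cell line. A symbol was taken where its FPKM (fragments per kilobase of transcript, scaled to the mapped fragments of a library) was at least 1 in 2 or more of the 6 libraries of a SETDB1 knockout set, or in 2 or more of the 4 values of an ATG5 knockdown set. That rule gave 111 members of 606 numbered LINC symbols. The members numbered 95 in each set, with 79 in both and 16 in each set alone. LINC01164, LINC00664 and LINC00665 were left out by name, and their values are given with the SETDB1 comparison because they bear on the counts.

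RNA of U2OS cells was selected with oligo-dT beads and sequenced. The SETDB1 set held mock-treated wild-type cells (WT) and mock-treated cells of 2 SETDB1 knockouts (KO1 and KO2), with 2 libraries in each of the 3 groups. The ATG5 set held cells with a vector (vector) or with an ATG5 knockdown (KD), each mock-treated or given 10 µM BIX-01294 (BIX) for 12 h, and every group had 1 value that stands for 2 replicates according to its label. No label says whether the 2 libraries of a group came from separate cultures, so p-values measure only the spread between these libraries. The protocol note describes BIX for every sample, yet titles and treatment labels call some of them mock, and the titles were followed. What the mock cells were given, how the knockouts and the knockdown were made, and whether each knockout is a single clone is not stated in the labels.

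Long intergenic noncoding RNAs are transcribed by RNA polymerase II from their own promoters, are spliced and often polyadenylated, and are as a class scarcer and more restricted to certain cell types than mRNAs. Many stay in the nucleus, where the exosome degrades part of them. SETDB1 methylates histone H3 at lysine 9 (H3K9me3), a mark of silent chromatin over retroelements and some gene clusters, with TRIM28 and its partner ATF7IP. BIX-01294 inhibits EHMT1 and EHMT2, the enzymes that dimethylate H3K9, and ATG5 is needed for the membrane conjugation step of autophagy.

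Of the 111 members, all matched the RefSeq gene table. RefSeq now lists 26 under another symbol and 6 as protein coding, each encoding a small protein: LINC00094 (BRD3OS), LINC00116 (MTLN), LINC00176 (C20orf204), LINC00493 (SMIM26), LINC00961 (SPAAR) and LINC00998 (SMIM30). The files' symbols are kept here. The members lie on 22 chromosomes, with the most (15) on chromosome 1 and 1 on chromosome 19.

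RefSeq promoters (build GRCh38.p14, from 250 bases before to 50 after the gene start) were held for 79 members. The promoters of 5 members on which the results turn are printed 5′ to 3′ on the gene's strand. LINC00226 rose in the SETDB1 knockouts, LINC00702 and LINC00839 were higher and LINC01089 lower with BIX, and LINC00152 was the member with the highest level. They lie at chr14:106287424-106287723 (plus strand), chr10:4243863-4244162 (minus strand), chr10:42475241-42475540 (plus strand), chr12:121802897-121803196 (minus strand) and chr2:87455177-87455476 (plus strand). Capitals mark each match on either strand to TGANTCA (the AP-1 motif), TGACGTCA (the CRE motif), TGATGNAAT (the composite ATF4 motif), GGGCGG (the GC box) or TATAAA (the TATA box), motifs that were chosen with earlier results of these data known. N stands for any base, so the AP-1 matches counted here are of a loose form that takes any middle base.
LINC00226: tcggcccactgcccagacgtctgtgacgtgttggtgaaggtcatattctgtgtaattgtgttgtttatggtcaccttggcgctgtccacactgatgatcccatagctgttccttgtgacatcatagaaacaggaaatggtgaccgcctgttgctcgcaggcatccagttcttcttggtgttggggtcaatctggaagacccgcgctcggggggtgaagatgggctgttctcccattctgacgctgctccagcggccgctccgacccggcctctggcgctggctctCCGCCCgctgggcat
LINC00702: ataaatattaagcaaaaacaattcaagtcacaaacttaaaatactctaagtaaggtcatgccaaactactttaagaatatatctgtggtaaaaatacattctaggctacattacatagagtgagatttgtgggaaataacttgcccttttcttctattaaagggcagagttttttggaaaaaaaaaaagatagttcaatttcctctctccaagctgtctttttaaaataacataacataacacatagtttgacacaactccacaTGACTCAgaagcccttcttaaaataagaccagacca
LINC00839: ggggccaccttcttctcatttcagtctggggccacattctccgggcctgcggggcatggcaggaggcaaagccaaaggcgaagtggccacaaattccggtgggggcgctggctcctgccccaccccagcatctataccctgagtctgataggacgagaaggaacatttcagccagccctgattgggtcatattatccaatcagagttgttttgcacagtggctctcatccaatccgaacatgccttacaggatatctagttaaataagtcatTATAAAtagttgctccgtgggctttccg
LINC01089: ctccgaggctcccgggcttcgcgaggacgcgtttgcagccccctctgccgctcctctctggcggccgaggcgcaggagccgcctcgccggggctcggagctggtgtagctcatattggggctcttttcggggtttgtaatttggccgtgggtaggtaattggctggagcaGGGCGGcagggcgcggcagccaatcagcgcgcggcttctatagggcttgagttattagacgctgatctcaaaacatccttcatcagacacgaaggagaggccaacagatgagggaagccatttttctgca
LINC00152: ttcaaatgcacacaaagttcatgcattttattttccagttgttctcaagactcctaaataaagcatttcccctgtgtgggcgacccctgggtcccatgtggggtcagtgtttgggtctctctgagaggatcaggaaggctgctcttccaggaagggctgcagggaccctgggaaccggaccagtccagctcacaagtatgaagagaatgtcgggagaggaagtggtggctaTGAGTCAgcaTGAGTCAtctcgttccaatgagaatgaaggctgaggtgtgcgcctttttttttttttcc
Within these windows LINC00152 held 2 AP-1 matches side by side, and LINC00702 held 1 AP-1 match and no CpG dinucleotide. LINC01089 held 1 GC-box match and 24 CpGs, LINC00226 held 1 GC-box match and 17 CpGs, and LINC00839 held 1 TATAAA match and 9 CpGs. The marked matches of LINC00702, LINC00226 and LINC00839 lay in the 50 bases after the gene start, not before it. Over the 79 promoters an AP-1 match was present in 12 (15.2%), against 7.71% of all 35116 promoters of the table. The GC box was present in 39.2% against 45.0%, TATAAA in 15.2% against 11.5%, the CRE motif in 2.53% against 1.85% and the ATF4 motif in 1.27% against 0.991%. The median CpG count was 13 in members and 14 in all promoters. Of the 8 members with a promoter that were at least 2-fold higher with BIX in 1 or both genotypes, 2 held an AP-1 match, and of the 5 that were lower, 1 did. These matches describe the letters of the window only.

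Most members were present at low levels. The median of the WT means was 3.32 FPKM over the 95 members that passed in the SETDB1 set, against 11.4 over all 12619 genes tested. An FPKM of 10 or more in WT was reached by 17 of the 95 (17.9%), against 53.8% of all tested genes, and 36 were under 2. Of the 606 symbols, 496 were under 1 in all 6 libraries and 251 were at 0 in all 6. Just inside the limit in the SETDB1 set stood LINC00961 and LINC00176, with a second-highest library of 1.06 and 1.12 FPKM, and just outside it LINC00632 and LINC01279 with 0.989 each. In the ATG5 set these were LINC00693 and LINC01144 (both 1.00) inside and LINC00341 (0.964) and LINC01232 (0.929) outside. On the log2(FPKM + 1) scale, the members' median gap between the 2 libraries of a group was 0.15 in WT, 0.15 in KO1 and 0.16 in KO2. Over all tested genes it was 0.13, 0.12 and 0.15. This scale shrinks gaps at low FPKM, where most members lie, and members were not set against genes of the same level. The gaps therefore do not show whether members were as reproducible as other genes.

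The member with the highest level was LINC00152 (now CYTOR, cytoskeleton regulator RNA), at 124.6 and 147.7 FPKM in WT, 136.8 and 116.4 in KO1, and 153.8 and 124.8 in KO2. The 3 groups overlapped. LINC00152 has a near-identical copy elsewhere in the genome (MIR4435-2HG), so its reads could be split or shared. LINC00657 (now NORAD, an abundant cytoplasmic RNA that binds PUMILIO proteins) came next, with 61.1 and 61.1 FPKM in WT, 62.8 and 68.6 in KO1, and 56.2 and 65.8 in KO2. Its libraries did not reach those of LINC00152. LINC00493 and LINC00998 followed, both of which encode small membrane proteins. LINC00493 lay between 29.3 and 41.7 FPKM over the 6 libraries and LINC00998 between 24.9 and 35.0, so their ranges overlapped. LINC00958 (24.8 to 34.3 FPKM), LINC00162 (now PICSAR, 18.5 to 25.5), LINC01057 (now SLC44A3-AS1, 17.1 to 26.5), LINC00963 (15.8 to 25.5), LINC01029 (14.7 to 22.1) and LINC00452 (12.4 to 24.5) completed the first 10, and neighbours in this order overlapped. In the ATG5 set, whose table was normalized separately, LINC00152 was again the highest in vector mock (98.7 FPKM), while LINC00162 stood at 3.80.

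**Figure D1:**
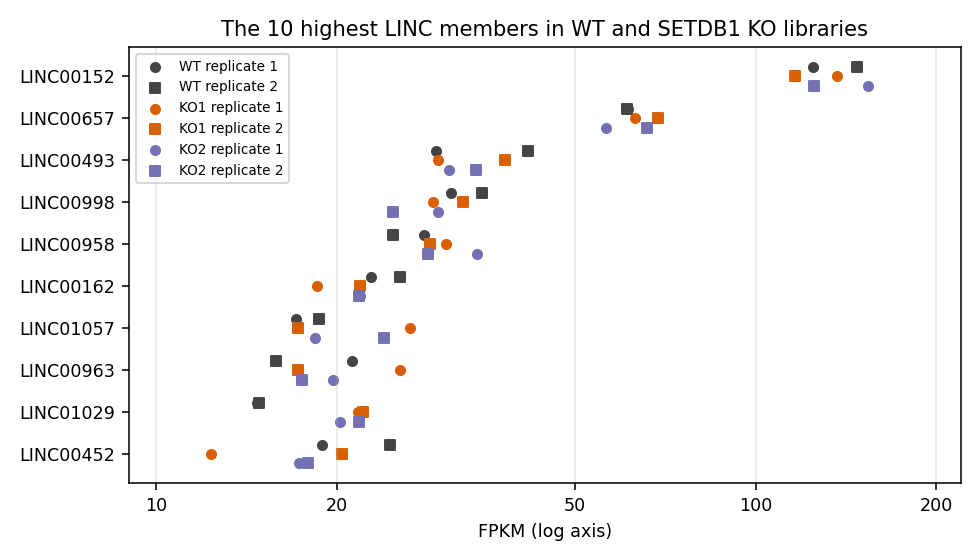
FPKM (log axis) of the 10 members with the highest mean over WT, KO1 and KO2, with 1 point per library. LINC00152 lies above 116 FPKM in all 6 libraries, LINC00657 between 56.2 and 68.6, and the other 8 members overlap with their neighbours.

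The 2 sets did not hold the same members at like levels. Of the 79 members in both, 16 were at least 2-fold apart between the WT mean and vector mock. LINC00442 and LINC00395 passed the FPKM limit through the ATG5 set alone and LINC00624 through the SETDB1 set alone. They are outside the 79 and were bound to be higher in the set that let them in. LINC00442 was at most 0.144 FPKM in the 6 libraries of the SETDB1 set and 16.9 in vector mock. It had 2 entries in the ATG5 set, of which the higher was kept. LINC00395 was listed at 0 in all 6 libraries and at 4.95 in vector mock. LINC00624 lay between 1.71 and 2.66 FPKM in the KO libraries and did not exceed 0.024 in the ATG5 set. The tables were normalized separately, so these levels were not compared by a test.

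For the study as a whole, 8 of 9 mesenchymal markers were at 1 FPKM or more in all 10 values (VIM, COL1A1, SPARC, FN1, RUNX2, CDH2, S100A6 and THY1), and COL1A2 did not exceed 0.154. TERT did not exceed 0.033 FPKM. Among epithelial markers KRT8 (383 to 633 FPKM) and KRT18 (213 to 537) were high, EPCAM lay between 1.83 and 3.68, and CDH1 was low. KRT19 was low in the SETDB1 set and had no value in the ATG5 set. The 4 blood markers used summed to at most 0.577 FPKM, with HBG1 at 0, and the 3 endothelial markers to at most 0.520. SETDB1 RNA was 9.98 and 9.32 FPKM in WT, 5.90 and 7.03 in KO1, and 6.89 and 7.35 in KO2, lower in all 4 KO libraries. ATG5 RNA in mock was 11.3 FPKM (vector) and 10.1 (KD), and with BIX 12.3 and 13.4, so the knockdown did not show in these values.

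The first comparison asked which members differed between the SETDB1 knockouts and WT. When the 2 knockouts were averaged and set against WT, 3 of 95 tested members rose (LINC00624, LINC00226 and LINC01029) and 1 fell (LINC00669), by limma with Benjamini-Hochberg adjustment over all 12619 genes. The background was 2.45% of all genes called higher and 0.777% called lower, and the members' shares were 3.16% and 1.05%. LINC00624 and LINC00226 passed the FPKM limit only through KO libraries, so their inclusion depended on being higher there. The median log2 difference was −0.04 over members and −0.01 over all genes, and 90 of the 95 differed by less than 0.5. At an unadjusted p under 0.05, 15 of the 95 members were higher and 7 lower, where the shares over all tested genes were 5.72% and 6.09%. WT lay below all 4 KO libraries in 17 members and above all 4 in 12, where the shares over all tested genes were 10.2% and 11.2%.

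LINC00624 stood at 0.043 and 0.025 FPKM in WT, 1.82 and 1.71 in KO1, and 2.30 and 2.66 in KO2. It was near 0 in WT and above 1.7 in every KO library. The log2 difference was 1.58 (SE 0.13, limma adjusted p = 1.77e-05), on the log2(FPKM + 1) scale, which understates changes of genes with low values. LINC00226 stood at 0.497 and 0.213 FPKM in WT, 1.94 and 1.34 in KO1, and 1.53 and 2.07 in KO2, a log2 difference of 1.00 (SE 0.16, limma adjusted p = 0.00263). Its WT and KO libraries did not overlap. Both rose in KO1 alone (limma adjusted p = 0.000167 for LINC00624 and 0.0130 for LINC00226) and in KO2 alone (3.80e-05 and 0.00718), contrasts that share the WT libraries. LINC00226 and its neighbour LINC00221 lie in the immunoglobulin heavy chain region of chromosome 14.

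LINC01029 was the only well-expressed member called. Its values were 14.7 and 14.9 FPKM in WT, 21.7 and 22.1 in KO1, and 20.3 and 21.8 in KO2. All KO libraries were above both WT libraries, and the log2 difference was 0.51 (SE 0.091, limma adjusted p = 0.00658). Leaving out WT replicate 1 or WT replicate 2 ended the call, with limma adjusted p = 0.0622 and 0.0534. LINC00669 (now MIR924HG, the host gene of a microRNA) was 3.52 and 3.39 FPKM in WT, 2.19 and 2.18 in KO1, and 2.04 and 2.20 in KO2. Every KO library was below both WT libraries, with a log2 difference of −0.50 (SE 0.12, limma adjusted p = 0.0383). This call was lost when any 1 of the 6 libraries was left out (limma adjusted p from 0.0646 without KO2 replicate 2 to 0.234 without WT replicate 1), and limma gave adjusted p = 0.110 for KO1 by itself and 0.0860 for KO2 by itself.

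**Figure D2:**
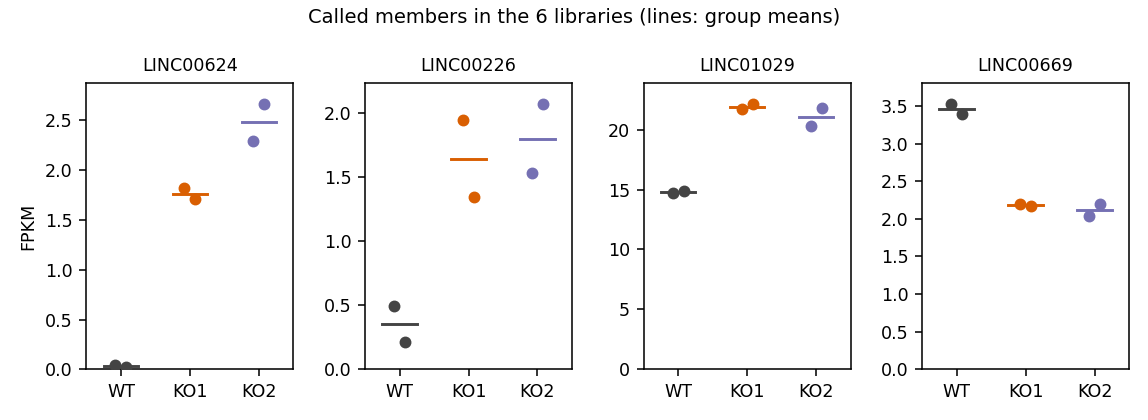
FPKM of the 4 called members in each library of WT, KO1 and KO2, with lines at the group means. LINC00624, LINC00226 and LINC01029 lie higher in all 4 KO libraries than in WT, and LINC00669 lies lower in all 4.

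**Figure D3:**
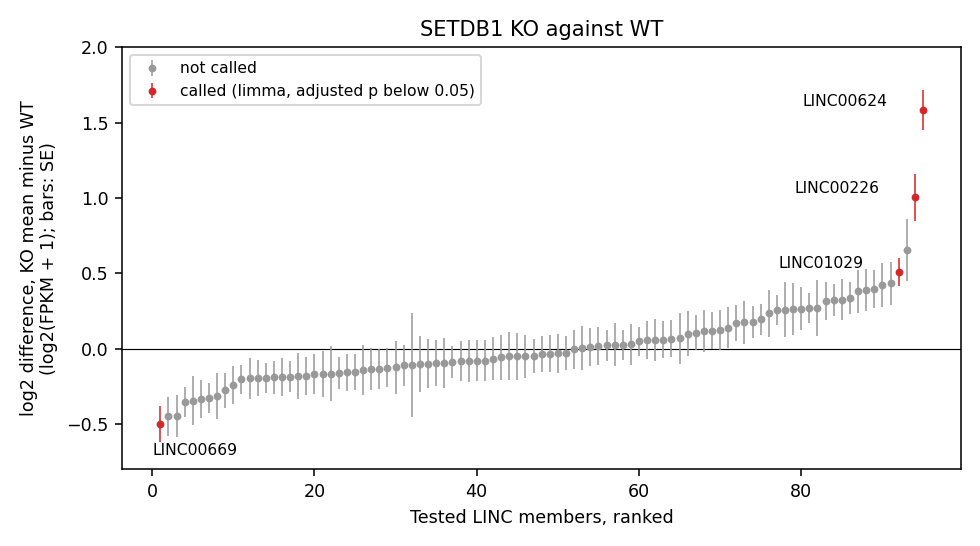
The log2 difference between the KO mean and WT, with its standard error, for the 95 tested members in rank order. The 4 called members (red) run from −0.50 for LINC00669 to 1.58 for LINC00624, and 90 of 95 members lie within 0.5 of 0.

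In KO1 against WT, 3 members rose and 0 fell, beside 1.89% of all genes called higher and 0.507% called lower by limma. The same 3 members, LINC00624, LINC00226 and LINC01029, rose in KO2 against WT and 0 fell, beside 2.0% and 0.436%. At an unadjusted p under 0.05, 14 of 95 members were higher and 6 lower in KO1, and 12 higher and 8 lower in KO2. The shares over all tested genes were 4.78% and 4.78% in KO1, and 5.28% and 4.56% in KO2. Between KO1 and KO2, limma called 0 members and 0.0% of all genes. At an unadjusted p under 0.05 there were 3 members, 1 higher and 2 lower in KO1, where the shares over all tested genes were 0.745% and 0.888%. Among members that missed the call, LINC00417 had the largest difference, 0.569 and 1.49 FPKM in WT, 2.05 and 2.54 in KO1, and 1.37 and 2.67 in KO2. Its WT and KO libraries overlapped (log2 difference 0.66, SE 0.21, limma adjusted p = 0.154).

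The 3 symbols left out by name all rose. LINC01164 went from 0.942 and 0.580 FPKM in WT to between 17.5 and 23.5 in the KO libraries (log2 difference 3.55, limma adjusted p = 1.66e-08). LINC00664 went from 0.0958 and 0.203 to between 7.27 and 9.18 (2.97, limma adjusted p = 4.98e-08), and LINC00665 from 0.385 and 0.470 to between 6.32 and 8.37 (2.48, limma adjusted p = 4.45e-07). All 3 differed more than any member. With them, 6 of 98 numbered LINC symbols tested rose, so the count of 3 in 95 follows in part from the choice of members.

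The second comparison asked which members differed between BIX and mock. With 1 value per group there was no replicate check and no test, and members were counted at a ratio of 2-fold or more of FPKM + 1. In vector cells, 8 of 93 members were higher (background 6.34% of all genes) and 4 lower (4.29%). In KD cells, 10 of 94 were higher (8.02%) and 6 lower (3.69%). Both genotypes together gave 6 of 92 members higher in both (5.37%) and 3 lower in both (2.79%). The median log2 ratio was −0.10 in vector and −0.12 in KD, against 0.00 and 0.01 over all genes, and 50 of 93 and 51 of 94 members lay below 0. Of the 95 members of the ATG5 set, 4 reached the FPKM limit only with BIX and 9 only in mock, so those were bound to differ in that direction.

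Higher in both genotypes were LINC00944, LINC00520, LINC00702, LINC00707, LINC00839 and LINC00998. LINC00944 went from 1.04 FPKM in mock to 8.53 with BIX in vector, and from 1.78 to 20.3 in KD. The BIX values stood far above the mock values in both genotypes (log2 ratios 2.23 and 2.93). Its mock values were low, and in the SETDB1 set its libraries differed widely within each group. They were 2.18 and 0.597 FPKM in WT, 0.422 and 1.72 in KO1, and 0.480 and 2.36 in KO2. LINC00520 went from 0.942 to 7.97 FPKM in vector and from 1.96 to 19.1 in KD (log2 ratios 2.21 and 2.76). The ratios of these 2 members were the largest of all members in either genotype. LINC00702 rested on lower values, 0.723 to 3.54 FPKM in vector and 1.20 to 6.03 in KD (1.40 and 1.67). LINC00707 went from 1.76 to 5.04 FPKM and from 6.54 to 16.4 (1.13 and 1.21). Its mock values already differed between vector and KD. LINC00839 went from 11.7 to 30.3 FPKM in vector and from 14.3 to 29.8 in KD (1.29 and 1.01). LINC00998, which encodes the small membrane protein SMIM30, went from 20.5 to 48.6 FPKM and from 27.4 to 56.0 (1.21 and 1.00). These last 2 lay at the 2-fold limit in KD: with ratios centred on the median of all genes they were at 1.00 and 0.99 and under it.

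Lower in both genotypes were LINC00883, LINC00842 and LINC01089. LINC00883 (now DUBR) went from 5.70 FPKM in mock to 0.550 with BIX in vector and from 4.38 to 0.466 in KD (log2 ratios −2.11 and −1.88). These were the lowest ratios of the members in both genotypes. LINC00883 reached the FPKM limit only in mock, so it was bound to be lower with BIX. LINC00842 went from 21.4 to 5.00 FPKM in vector and from 22.8 to 5.77 in KD (−1.90 and −1.81). LINC00842 lies in a duplicated part of chromosome 10, and the table also lists a joined locus of HNRNPA1P33 and LINC00842 whose log2 ratios were 0.30 and −0.11, so its level is uncertain. LINC01089 went from 27.0 to 12.3 FPKM and from 24.2 to 9.28 (−1.07 and −1.30).

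In 1 genotype only, 6 of 92 members were higher (background 3.43% of all genes) and 4 lower (2.46%). LINC01060 went from 9.81 to 43.8 FPKM in KD (log2 ratio 2.05) and from 8.07 to 15.8 in vector (0.89), the 1 member whose log2 ratio was larger in KD by 1 or more. Over all genes that share was 0.602%. LINC00152 went from 117.8 to 287.3 FPKM in KD (1.28) and from 98.7 to 189.5 in vector (0.93), the largest gain in FPKM of these members. LINC01310 (0.275 to 2.74 FPKM in KD, ratio 1.55) and LINC01012 (0.849 to 3.94 in vector, ratio 1.42) were under 1 FPKM in mock in both genotypes. The other 2 were LINC00693 (0.599 to 2.55 FPKM in vector, ratio 1.15, and 0.38 in KD) and LINC00941 (4.86 to 11.1 in KD, ratio 1.05, and 0.77 in vector). LINC00693 too was under 1 FPKM in mock in both genotypes (0.599 and 0.543). LINC01310, LINC01012 and LINC00693 thus reached the FPKM limit only with BIX and were bound to be higher there. Lower in 1 genotype were LINC00545 (2.28 to 0.105 FPKM in vector, −1.57), LINC00862 (20.2 to 8.47 in KD, −1.16), LINC00442 (14.7 to 6.60 in KD, −1.05) and LINC01029 (10.8 to 4.77 in KD, −1.03). LINC00545 reached the FPKM limit only in mock, so it was bound to be lower with BIX. With repeated entries summed, the ratio of LINC01029 was −0.98 and under the limit. LINC00442 and LINC01029 had ratios of −0.92 and −0.71 in the other genotype, so passing in 1 genotype does not show a difference between them, which was not tested.

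Over the 92 members with both ratios, 78 (84.8%) had the same sign in vector and KD, against 89.3% of all genes, and Pearson's r between the genotypes was 0.90 (0.93 over 12299 genes). This is a description across genes of 4 values, and genes are not independent replicates. NORAD (LINC00657) went from 55.3 to 43.1 FPKM in vector and from 48.8 to 38.9 in KD (−0.35 and −0.32). LINC00116 (now MTLN, a mitochondrial small protein) was higher by less than 2-fold, from 7.89 to 15.2 FPKM and from 8.78 to 16.3 (0.87 and 0.82).

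**Figure D4:**
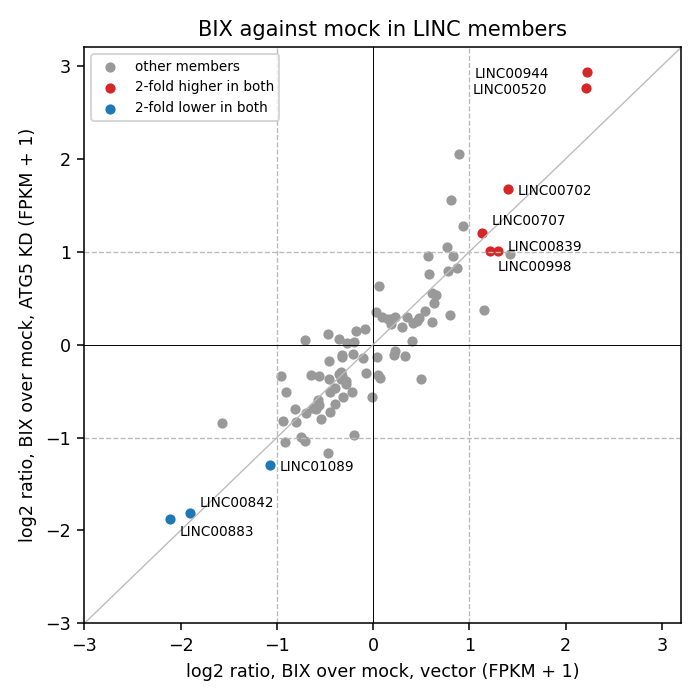
The log2 ratio of FPKM + 1, BIX over mock, in vector (x axis) and in ATG5 KD (y axis) for 92 members, with dashed lines at 2-fold and a line of equality. LINC00944 and LINC00520 are highest in both and LINC00883 and LINC00842 lowest in both.

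Markers of other cell types differed in this set too. The 3 neural markers summed to 3.89 FPKM (vector mock), 7.59 (vector BIX), 7.16 (KD mock) and 21.7 (KD BIX), of which SYP made 1.52, 6.58, 2.22 and 19.4, while RBFOX3 went from 2.11 to 0.917 and from 4.68 to 2.20. The epithelial markers, less KRT19, which had no value in this set, summed to 599, 779, 840 and 1174 FPKM in the same order. Of these sums KRT8 made 383, 471, 486 and 633, and KRT18 made 213, 305, 350 and 537. The 9 mesenchymal markers summed to 2463, 1936, 2158 and 1849 FPKM. Their part in the members' ratios was not tested. In the SETDB1 set the neural markers summed to 5.14 to 5.45 FPKM in WT and 4.74 to 5.88 in KO, and the epithelial markers to 834 to 943 and 715 to 838. The mesenchymal markers summed to 2212 to 2279 FPKM in WT and 1992 to 2109 in KO, without overlap. Among them COL1A1 (241 and 246 FPKM in WT, 174 to 202 in KO) and S100A6 (126 and 140 in WT, 79.9 to 102 in KO) were lower in every KO library. Their part in the members' differences between KO and WT was not tested.

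The third comparison set KD beside vector. In mock, 3 of 91 members were at least 2-fold higher in KD (0.504% of all genes) and 1 lower (0.448%). With BIX, 6 of 86 were higher (1.39%) and 1 lower (0.457%). In both treatments, 2 of 82 were higher (0.295%) and 1 lower (0.211%). LINC00707 was 1.76 FPKM in vector and 6.54 in KD in mock, and 5.04 and 16.4 with BIX (log2 ratios 1.45 and 1.52). LINC01356 was 2.08 and 5.32 FPKM in mock and 4.49 and 11.3 with BIX (1.04 and 1.16). The lower member was LINC00662, at 21.2 and 8.75 FPKM in mock and 18.002 and 5.83 with BIX (−1.19 and −1.48). In mock alone LINC01029 was higher as well, 3.72 against 10.8 FPKM (1.32), with a ratio of 1.00, just under 2-fold, with BIX. With BIX alone LINC00452 (7.92 against 25.5 FPKM, 1.57), LINC01060 (1.41), LINC00520 (1.17) and LINC00944 (1.16) were higher. The comparisons of BIX and of KD share values, and for LINC00520, LINC00944 and LINC01060 the same KD BIX value enters both. LINC00520 and LINC00944 were also past 2-fold with BIX in vector (2.21 and 2.23), which does not use that value. LINC01060 was not (0.89). No replicate bears on these ratios, and ATG5 RNA itself was 11.3 and 10.1 FPKM in mock.

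**Figure D5:**
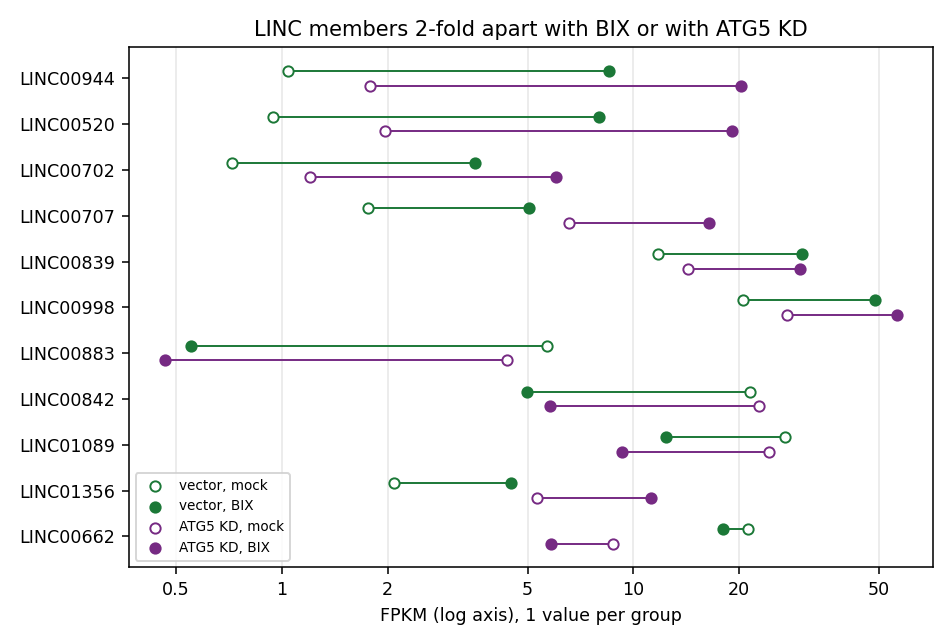
FPKM (log axis, 1 value per group) in mock (open) and BIX (filled) for vector (green) and KD (purple), for members at least 2-fold apart with BIX in both genotypes or between KD and vector in both treatments. LINC00944 and LINC00520 move most to the right with BIX, LINC00883 most to the left, and LINC00662 lies lower in KD in both treatments.

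LINC01029 was the 1 member called in the knockouts and also 2-fold apart with BIX. Its KO call ended when WT replicate 1 or WT replicate 2 was left out, and with repeated entries summed its BIX ratio in KD was under 2-fold. It was higher in the SETDB1 knockouts (14.7 and 14.9 FPKM in WT, 20.3 to 22.1 in KO) and lower with BIX in KD (10.8 to 4.77), and lower by less than 2-fold in vector (3.72 to 1.89). LINC00669 was 6.84 FPKM in vector mock and 9.72 in vector BIX, and 6.67 and 8.14 in KD. LINC00226 was 1.10 and 0.522 FPKM in vector and 1.36 and 1.09 in KD. LINC00624, highest in KO2, was between 0 and 0.024 FPKM in the 4 values of the ATG5 set.

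Neighbouring genes were read from the RefSeq order, as the next gene on each side that was tested in the same comparison. No limit was set on the distance, so genes given as neighbours or as beside each other need not be close. For the KO mean, 6 of 95 members (6.32%) had a called neighbour, against 5.20% of all genes. None of the 4 called members had a neighbour called in either direction. Of the 385 called genes that could be placed, 45.5% had a called neighbour in the same direction. With only 4 called members, the difference from that share was not tested and cannot be judged. LINC00624 stood between PDIA3P1 and BCL9 (log2 differences 0.37 and −0.04), LINC01029 between ZNF236 and ATP9B (0.12 and 0.22), LINC00669 between TPGS2 and PIK3C3 (−0.11 and 0.14), and LINC00226 between TMEM121 (−0.29) and LINC00221 (0.32). The 6 members beside a called gene were LINC00221 (beside LINC00226), LINC00630 (beside BEX1, −0.48), LINC00937 (beside MFAP5, −0.67), LINC00999 (beside LOC441666, 1.35), LINC01021 (beside CDH12, −0.75) and LINC01060 (beside TRIML2, −0.58). Their own differences were 0.32, 0.12, −0.24, 0.43, 0.03 and 0.26, and none was called.

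With BIX, 21 of 93 members (22.6%) in vector and 22 of 94 (23.4%) in KD had a neighbour past 2-fold, against 19.99% and 21.8% of all genes. LINC00702 lies beside KLF6, a zinc finger transcription factor, which went from 8.56 to 43.3 FPKM in vector and from 9.69 to 39.7 in KD (log2 ratios 2.21 and 1.93). Both genes of this pair were higher with BIX in both genotypes. LINC00842 and its neighbour ANXA8L1 were both lower, ANXA8L1 from 16.1 to 5.19 FPKM and from 19.7 to 5.93 (−1.47 and −1.58), and both lie in the duplicated region. In KD, LINC00944 was higher beside LINC00943 (1.90), LINC00520 beside PELI2 (1.13), LINC01060 beside TRIML1 (1.47) and LINC00152 beside KRCC1 (1.03). LINC00707 was higher beside PRKCQ-AS1, which was lower (−1.06). TRIML1 was not tested in the SETDB1 set, where TRIML2 was the neighbour of LINC01060. With BIX, TRIML2 went from 11.2 to 117 FPKM in vector and from 16.8 to 223 in KD (log2 ratios 3.28 and 3.65). LINC00883 and LINC01089 had no neighbour past 2-fold in either genotype.

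Promoters that point away from another gene's promoter within 1000 bases were found for 7 members, 8.86% of the 79 with a promoter, against 12.1% of 16704 genes. This search was added after values had been seen. LINC01137 (now LITATS1) starts 137 bases from ZC3H12A, which encodes the ribonuclease Regnase-1. With BIX, LINC01137 went from 2.83 to 1.19 FPKM in vector and from 3.17 to 1.58 in KD (log2 ratios −0.81 and −0.69), while ZC3H12A went from 5.03 to 16.9 and from 5.60 to 23.5 (1.57 and 1.89). The ratios of the pair had opposite signs in both genotypes. Over the 7 members, the ratio had the sign of the partner's in 5 in vector and 2 in KD, with LINC00526 and LINC00667 each counted as the other's partner. LINC00526 and LINC00667 start 71 bases apart, and their ratios were −0.27 and −0.31 in vector and 0.01 and −0.57 in KD. LINC00893 and LINC00894 each start beside one of the near-identical genes CXorf40A and CXorf40B, so their reads could be split. LINC00893 had ratios of −0.45 and −0.72 beside −0.21 and −0.16 of CXorf40A, and LINC00894 of −0.28 and −0.39 beside 0.25 and 0.33 of CXorf40B. LINC00909 (35 bases from ZNF407) had ratios of 0.66 and 0.54 beside 0.29 and 0.28 of ZNF407. LINC01184 (591 bases from SLC12A2) had ratios of 0.22 and −0.12 beside 0.53 and 0.45 of SLC12A2. The labels do not say whether counting used strand, so reads from overlapping genes of opposite strands cannot be told apart.

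Other noncoding RNA genes, in lists fixed with earlier results known, were set beside the members. Over all genes, limma called 2.45% higher and 0.777% lower in the KO mean. With BIX, 6.34% of all genes were at least 2-fold higher and 4.29% lower in vector, and 8.02% and 3.69% in KD. The counts of every list below are to be read against these shares. Of 188 tested antisense RNA genes, 7 rose and 1 fell in the KO mean by limma (median −0.01), led by ZNF582-AS1 (1.48 and 1.57 FPKM in WT, 6.45 to 8.06 in KO, log2 difference 1.69) and TSPEAR-AS1 (1.85 and 1.88 in WT, 5.67 to 7.08 in KO, 1.38). With BIX, 6 of 182 antisense genes were higher and 19 lower in vector, with a median of −0.30, and 8 and 16 of 194 in KD, with a median of −0.22. Examples were ASB16-AS1 (13.8 to 3.76 FPKM in vector, −1.63) among the lower and CFLAR-AS1 (0.610 to 7.74, 2.44) among the higher. The members' medians of −0.10 and −0.12 lay between these and the medians of all genes, 0.00 and 0.01.

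Of 16 genes that host small nucleolar RNAs in their introns, 6 were tested in the ATG5 set and 3 were higher with BIX in each genotype, with medians of 1.13 and 1.19. SNHG17 went from 9.43 to 72.3 FPKM in vector, SNHG15 from 12.6 to 56.0 and SNHG5 from 13.7 to 50.8. In the KO mean 1 of the 16, SNHG18, fell (10.3 and 11.1 FPKM in WT, 6.42 to 7.56 in KO, log2 difference −0.59, limma adjusted p = 0.00647) and 0 rose. None of 7 tested microRNA host genes was called in the KO mean by limma, a list that does not hold LINC00669 under its older symbol. Of 10 tested with BIX, 1 was higher and 1 lower in vector, and 0 and 1 in KD.

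Among long noncoding RNAs with names of their own, 0 of 13 were called in the KO mean, and with BIX PVT1 was higher (1.15 to 4.31 FPKM in vector, 1.23 to 3.56 in KD) and HOTAIR, an RNA of the HOXC cluster, lower (7.31 to 2.50 and 7.15 to 1.60), of 11 tested. MALAT1 went from 79.6 to 102.4 FPKM in vector and from 89.1 to 100.2 in KD. Of 24 genes of nuclear RNA decay, 0 were called in the KO mean, and with BIX 1 and 2 of 20 were higher in vector and KD (medians 0.29 and 0.29). ZCCHC8, a subunit of the complex that brings the exosome to unstable nuclear RNAs, went from 6.64 to 16.7 and from 7.91 to 19.6 FPKM. Of 17 genes of H3K9 methylation, ATF7IP (14.2 and 14.3 FPKM in WT, 30.3 to 40.9 in KO, log2 difference 1.20) and ATF7IP2 (0.77) rose and SETDB1 fell (−0.45, limma adjusted p = 0.0434). The joined locus of EHMT2 and ZBTB12, which holds a target of BIX, was lower with BIX (22.7 to 10.8 FPKM in vector, 20.3 to 9.02 in KD).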

How the data were processed

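Libraries of U2OS poly(A) RNA were checked with FastQC, trimmed with cutadapt, aligned with TopHat2 to hg19 and quantified with Cufflinks, per the submitters' processing notes. No label states tool versions, gene annotation, strandedness or read totals. The authors deposited FPKM per gene, which were used as they stood. Column sums ranged from 445281 to 564049.5. Depth is unknown, but the steps of low values gave relative reads: WT had 0.909 and KO2 0.885 of KO1 in replicate 1, and 0.785 and 0.724 in replicate 2.

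Where a table repeats a symbol (9 members in the ATG5 table), the entry with the highest mean was kept. Members absent from 1 table (10) were counted in the other. FPKM was tested as log2(FPKM + 1) with limma 3.58.1 (R 4.3.3, variance trend) on the 6 libraries of the SETDB1 set together, over the 12619 genes that reached FPKM 1 in at least 2 libraries, with genes of short RNAs left out. Benjamini-Hochberg adjustment ran over all of them, with calls below 0.05. The script was tested on simulated data. In the ATG5 set, genes at FPKM 1 or more in 1 of the 2 values were counted at 2-fold. Promoters and gene order came from RefSeq (GRCh38.p14).

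Named are the 10 members with the highest mean, those called in the KO mean, those past 2-fold with BIX in both genotypes or with KD in both treatments, up to 4 in each direction past it with BIX in 1 genotype, those beside a called gene, and up to 4 genes of a list with the largest difference. Others were chosen after values were seen: LINC00693, LINC00941, members past 2-fold with KD in 1 treatment, LINC00417, LINC00657 and LINC00116 with BIX, LINC00395, MALAT1, and the head-to-head pairs. Members and lists were chosen with earlier results of these data known. Alternatives covered the pseudocount, filters, scaling, the trend, the replicate block, each library left out, repeated symbols and the fold limit. Chromatin samples and mouse cells were not analysed here, and 1 blood marker is not reported here.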

Additional observations from a re-analysis of the deposited data

How the results depend on the processing

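None of the 4 members called in the KO mean changed direction under any alternative run. Uncalled members with differences near 0 have no settled direction and could change sign when a library was left out. LINC00152 is an example, at 124.6 and 147.7 FPKM in WT and between 116.4 and 153.8 in KO. In the SETDB1 set, a limit of FPKM 5 left 39 members and 1 call (higher) in the KO mean, 1 in KO1 and 1 in KO2, and no filter left 1 in KO2. Leaving out 1 library gave 2 to 4 members called in the mean, 1 to 3 in KO1 and 1 to 3 in KO2. The mean fell to 2 without WT replicate 1, KO1 to 1 without KO1 replicate 1, and KO2 to 1 without WT replicate 2 or KO2 replicate 2. The LINC00669 call was also lost with no filter (limma adjusted p = 0.115), and LINC00452 was called lower only without KO1 replicate 2 (0.0220). The replicate numbers were not taken to pair the libraries, as there are only 2 and the correlations between groups of the deviations were 0.37, 0.00 and 0.20. With the replicate block 5 members were called in the mean (4 higher, 1 lower), 4 in KO1 and 3 in KO2. In the ATG5 set, a pseudocount of 0.1 gave 20 members past 2-fold with BIX in vector (10 higher, 10 lower), 27 in KD (12 and 15), and 7 (5 and 2) and 15 (10 and 5) for KD against vector in mock and BIX. At 1.5-fold these were 37 (20 and 17), 37 (17 and 20), 12 (9 and 3) and 22 (16 and 6). The 72 other counts stayed within 1.5 times. With 1 value per group, no error can be given for the ATG5 set, and low FPKM limit most members.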
